A study of Mus musculus with 24 samples.

Results

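Neurotrophins are secreted growth factors that keep neurons alive and adjust their synapses. Bdnf encodes brain-derived neurotrophic factor and Ntf3 encodes neurotrophin 3. Ntrk2 and Ntrk3 encode TrkB and TrkC, the receptor tyrosine kinases that bind these ligands, and Ngfr encodes p75, a receptor without kinase activity that binds every neurotrophin and, more tightly, their uncut precursors. In the adult forebrain Bdnf is made mainly by excitatory neurons of the cortex and hippocampus, striatal neurons receive it from cortical axons, TrkB is found on neurons and, in a form that lacks the kinase, on astrocytes, and p75 is known as a surface protein of basal forebrain cholinergic neurons.

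The set was the 5 genes Bdnf, Ntf3, Ntrk2, Ntrk3 and Ngfr, taken by name, with all of their probes in the annotation of the array. Of these genes 4 had a probe, out of 19057 named genes with a probe, and Ntf3 was not analysed here. The 4 genes were covered by 16 probes. Of these 10 were kept, meaning that their detection p-value was under 0.05 on at least 6 of the 24 arrays, and each of the 4 genes kept at least 1 probe. In total 21113 probes and 11439 named genes were kept.

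The samples were frontal cortex and cerebellum from 12 naive SJL/JOrlCrl mice, an inbred strain, at 10 weeks of age. The 4 groups were male frontal cortex, female frontal cortex, male cerebellum and female cerebellum, with 6 arrays in each, and both tissues of an animal were measured. RNA was measured on Illumina MouseWG-6 v2.0 arrays, on which each probe is read from many beads. In such bulk samples fewer cells of a type and less RNA per cell cannot be told apart.

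Arrays detected 18099 to 19927 of the 45281 probes, and precision is limited by the number of arrays. The labels also carry a tag of 2 kinds, called tag sets a and b here, with 2 and 4 arrays of every group, and what it stands for is not given in the sources used here. The labelled tissues were borne out by their markers. The summed intensity of 11 cerebellar markers lay between 65340 and 71400 on cerebellum arrays and between 5022 and 6731 on frontal cortex arrays, and that of 12 neocortical markers between 21370 and 30920 on frontal cortex arrays and between 1672 and 2752 on cerebellum arrays. Neurod2 was the 1 neocortical marker that was higher in cerebellum. Markers of other regions were not even within a tissue. The sum of 7 choroid plexus markers ran from 625.9 to 12950 on cerebellum arrays, with female cerebellum replicates 1 and 2 the highest, and that of 10 striatal markers from 3441 to 13680 on frontal cortex arrays, with the 4 male arrays of tag set b the highest.

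The Bdnf gene lies on mouse chromosome 2 (GRCm38.p6, chr2:109674700-109727043) and starts from several promoters, which RefSeq gives as 7 start windows of 300 bases, from 250 bases before to 50 after each start. Transcription of Bdnf in active neurons is known to run through the factor CREB, which binds the cyclic AMP response element TGACGTCA or its shorter core TGACG on either strand. The core was found in 1 of the 11 start windows of the members, and the full element, which contains the core, in 0 of 11. Across 32851 mouse windows of the same length the shares were 20.8% and 1.79%. That window, shown because it is the Bdnf promoter stretch that holds the core, is printed from the RefSeq table (GRCm38.p6, chr2:109692186-109692485, plus strand, 5′ to 3′), with the core, as its reverse complement, in capitals.
Bdnf start window: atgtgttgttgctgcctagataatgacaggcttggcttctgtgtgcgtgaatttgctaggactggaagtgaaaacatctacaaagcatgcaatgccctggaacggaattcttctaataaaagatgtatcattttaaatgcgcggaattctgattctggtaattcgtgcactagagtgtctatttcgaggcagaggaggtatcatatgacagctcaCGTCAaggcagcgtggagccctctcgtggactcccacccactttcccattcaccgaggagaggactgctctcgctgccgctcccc
The match is a description of these letters and says nothing of binding, and the arrays did not measure promoter use.

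By the brightest probe of each gene, Bdnf, the ligand, was lower in cerebellum than in frontal cortex, Ntrk2 was lower, Ntrk3 was higher, and Ngfr did not pass the test. By the test of the mean of both sexes, with limma and Benjamini-Hochberg adjustment across all kept probes at a threshold of 0.05, 5 of the 10 member probes were lower in cerebellum and 1 was higher. The lower ones include the Bdnf probe ILMN_1214228, which was kept through its detection in frontal cortex. Among all kept probes 31% were lower and 36.8% were higher, so a tissue difference as such was common. In females 6 of the 10 member probes passed, where 57.2% of all probes did, and in males 6 passed, where 58.1% did. These were the same probes, with the same direction, in both sexes.

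**Figure D1:**
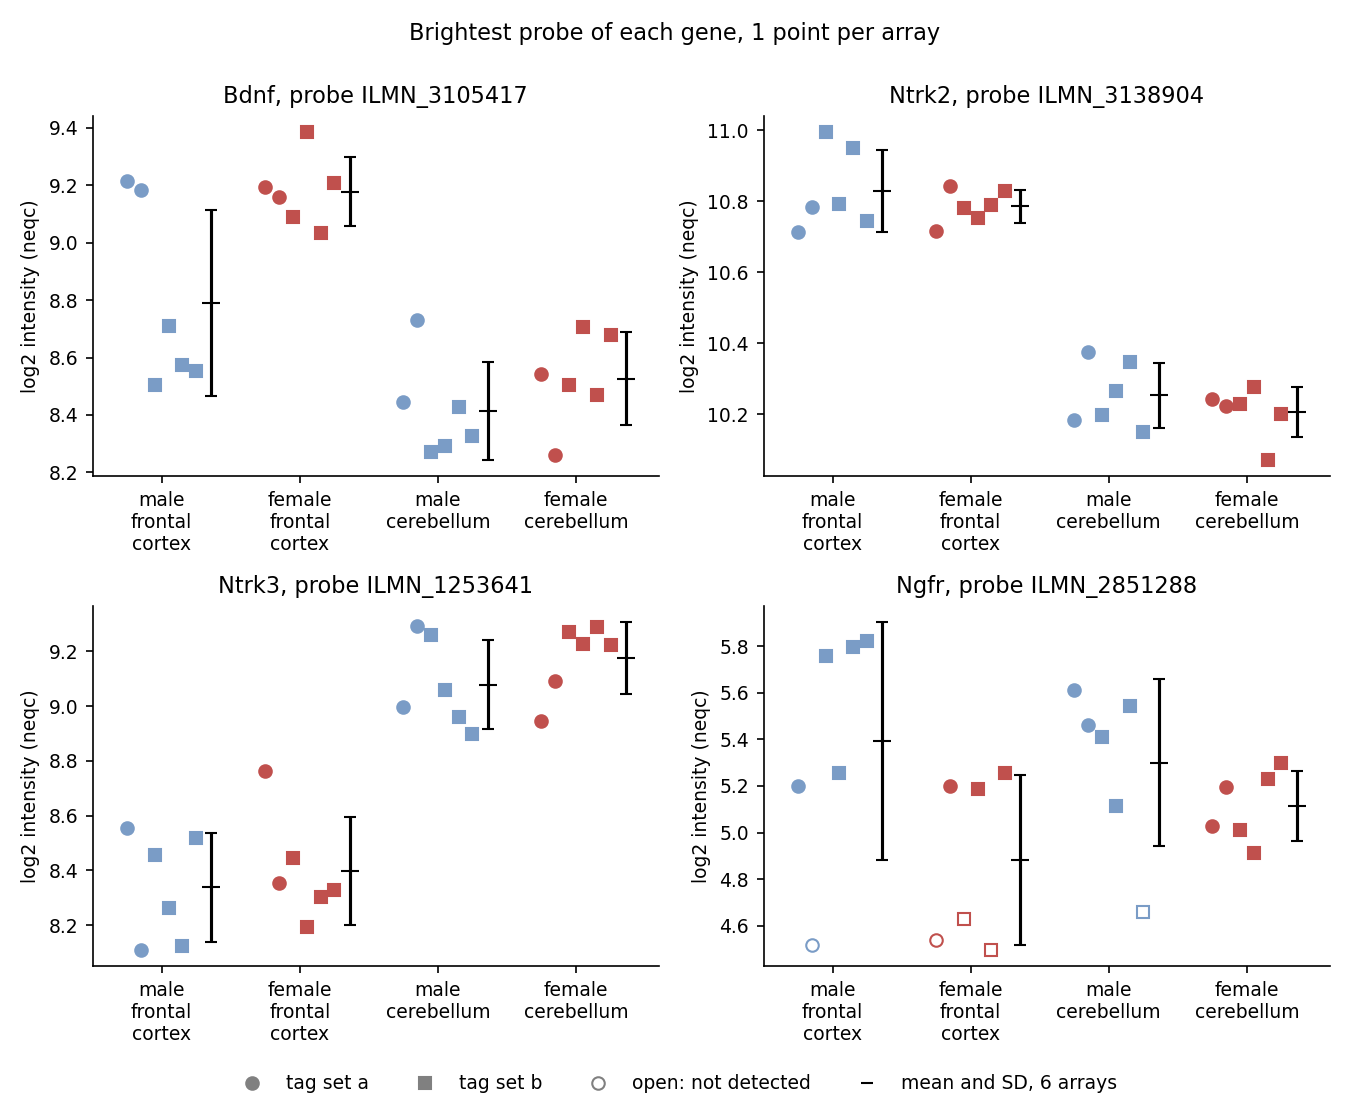
The log2 intensity after background correction and quantile normalization is plotted for the brightest probe of each gene, with 1 point per array in each of the 4 groups. Points are round for tag set a and square for tag set b, open where the probe was not detected, and bars give the mean and SD of 6 arrays. Ntrk2 and Ntrk3 show no overlap between the tissues, Bdnf in male frontal cortex falls into a higher pair from tag set a and 4 lower arrays from tag set b, and Ngfr lies near the limit of detection.

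The brightest Bdnf probe, ILMN_3105417, was detected on each of the 24 arrays. Its log2 level had a lowest, median and highest value of 9.03, 9.18 and 9.39 in female frontal cortex and of 8.51, 8.64 and 9.21 in male frontal cortex. In cerebellum these values were 8.26, 8.52 and 8.71 in females and 8.27, 8.38 and 8.73 in males. All female frontal cortex arrays lay above all female cerebellum arrays, whereas 1 of 6 male cerebellum arrays overlapped the male frontal cortex range. The groups ranked as female frontal cortex, male frontal cortex, female cerebellum and male cerebellum, with means of 9.18 ± 0.12, 8.79 ± 0.32, 8.53 ± 0.16 and 8.42 ± 0.17 (SD, n = 6), and the ranges of each neighbouring pair in this order overlapped.

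The level of Bdnf in cerebellum was 1.43-fold lower than in frontal cortex over both sexes (log2 difference -0.51 ± 0.08 SE, limma adjusted p = 3.7e-06). It was lower in cerebellum in 12 of 12 animals, by a paired log2 difference that ran from -0.90 to -0.15 with a median of -0.55. The difference was -0.65 in females and -0.38 in males (limma adjusted p = 2.5e-05 and 0.0071). In males it was -0.61 within tag set a and -0.26 within tag set b (limma adjusted p = 0.013 and 0.024).

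Further Bdnf probes, which the annotation assigns in part to other transcripts, did not all move alike. ILMN_2666980, annotated to the same transcript as the brightest probe, had a mean log2 level of 5.86 ± 0.32 in frontal cortex and 5.23 ± 0.21 in cerebellum (SD, n = 12) and was lower in cerebellum in 12 of 12 animals (-0.63 ± 0.10 SE, limma adjusted p = 1.4e-06). It was dim, and its difference was -0.31 without background correction, and -0.98 and -0.46 within tag sets a and b. ILMN_1214228, annotated to another transcript, was detected on 12 of 12 frontal cortex arrays but on 4 of 12 cerebellum arrays. Its log2 level ran from 5.59 to 6.43 in frontal cortex and from 4.33 to 4.86 in cerebellum, with no overlap (fitted difference -1.37 ± 0.09 SE, limma adjusted p = 2.3e-13). The dimmest level called detected on an array lay between 4.67 and 4.81, so most of its cerebellum values were at the limit of detection, and without background correction the difference was -0.64.

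By contrast ILMN_2446230 was detected on 24 of 24 arrays at a mean of 5.57 ± 0.25 in frontal cortex and 5.62 ± 0.16 in cerebellum (SD, n = 12). It did not pass (0.05, 95% interval -0.12 to 0.23, limma adjusted p = 0.6), and 6 of 12 animals had it higher in cerebellum. ILMN_1255582, detected on 13 arrays, did not pass either (-0.02, 95% interval -0.18 to 0.14, limma adjusted p = 0.81), and ILMN_1246842 was detected on 0 of 24 arrays. None of these was annotated to the transcript of the brightest probe, and ILMN_1246842 shared its annotated transcript with ILMN_1214228. A lower level in cerebellum was thus read by both probes annotated to the brightest probe's transcript, each detected on 24 arrays. ILMN_2446230, also detected on 24 arrays, did not read it. Whether a probe reads only its annotated transcript was not checked. ILMN_1214228 was kept through its detection in frontal cortex, so its direction adds no support.

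The receptor gene Ntrk2 was lower in cerebellum by both of its kept probes. Its brightest probe, ILMN_3138904, had a lowest, median and highest log2 level of 10.71, 10.79 and 11.00 in male frontal cortex and of 10.72, 10.79 and 10.84 in female frontal cortex. In cerebellum these values were 10.15, 10.23 and 10.37 in males and 10.07, 10.23 and 10.28 in females. Each cerebellum array lay below each frontal cortex array. The order of the means was male frontal cortex (10.83 ± 0.12), female frontal cortex (10.79 ± 0.05), male cerebellum (10.25 ± 0.09) and female cerebellum (10.21 ± 0.07, SD, n = 6), and within each tissue the sexes overlapped.

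Ntrk2 was 1.49-fold lower in cerebellum (log2 difference -0.58 ± 0.04 SE, limma adjusted p = 7.2e-12), with -0.58 in each sex, and lower in 12 of 12 animals, by -0.80 to -0.41. The dimmer probe ILMN_3061460, annotated to the same transcript, ran from 6.65 to 7.48 in frontal cortex and from 4.81 to 5.99 in cerebellum, again with no overlap. Its difference was -1.62 ± 0.11 SE, or 3.07-fold (limma adjusted p = 3.5e-13), and the fall it gave was larger than that of the brighter probe in 12 of 12 animals. Without background correction the dimmer probe gave -0.96. The other Ntrk2 probes, annotated to other transcripts, were detected on 2 arrays (ILMN_2705460) and on 0 arrays (ILMN_2553897) and give no comparison.

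Both Ntrk2 probes moved against the summed level of astrocyte markers, which lay between 43810 and 46980 on cerebellum arrays and between 21630 and 28190 on frontal cortex arrays. Of 11 astrocyte markers 8 were higher in cerebellum, 2 were lower and 1 did not pass. Their part in the Ntrk2 levels was not tested. Whether the kept Ntrk2 probes read the form without the kinase was not determined.

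Ntrk3 ran the other way. Its brightest probe, ILMN_1253641, had a lowest, median and highest log2 level of 8.11, 8.36 and 8.55 in male frontal cortex and of 8.19, 8.34 and 8.76 in female frontal cortex, against 8.90, 9.03 and 9.29 in male cerebellum and 8.95, 9.23 and 9.29 in female cerebellum. Each cerebellum array lay above each frontal cortex array. In order, the means were female cerebellum (9.18 ± 0.13), male cerebellum (9.08 ± 0.16), female frontal cortex (8.40 ± 0.20) and male frontal cortex (8.34 ± 0.20, SD, n = 6), and within each tissue the sexes overlapped.

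The level of Ntrk3 in cerebellum was 1.69-fold that in frontal cortex (log2 difference 0.76 ± 0.07 SE, limma adjusted p = 2.9e-10). It was 0.78 in females and 0.74 in males (limma adjusted p = 1.8e-07 and 4e-07). The paired difference was positive in 12 of 12 animals and ran from 0.19 to 1.19, with the lowest value in female animal replicate 1. Within tag set a, with 2 arrays per group, the difference in females was 0.46 and did not pass (limma adjusted p = 0.11). Female frontal cortex replicate 1, in that tag set, had the highest Ntrk3 level of its tissue, at 8.76 with the nearest female array at 8.44. Among frontal cortex arrays it also had the lowest striatal and cholinergic marker sums (3441 and 189.4) and the highest neocortical sum (30920). Whether these bear on its Ntrk3 level was not tested. ILMN_2599036, a dim probe annotated to another Ntrk3 transcript and detected on 14 arrays, did not pass (-0.05, 95% interval -0.30 to 0.20, limma adjusted p = 0.73), and ILMN_2632337 was detected on 2 arrays.

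**Figure D2:**
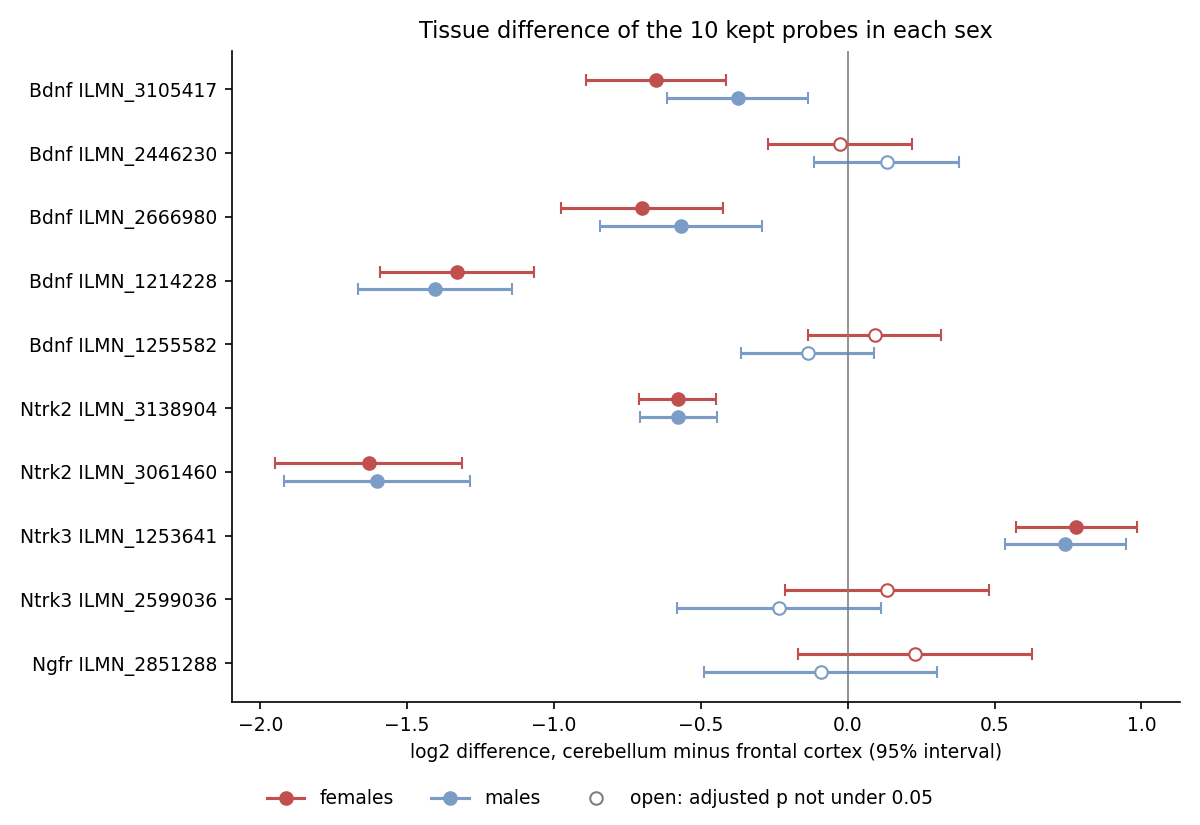
The log2 difference of cerebellum minus frontal cortex is plotted for the 10 kept probes, with 95% intervals, in females (red) and males (blue), and filled points mark an adjusted p under 0.05. In both sexes 3 Bdnf probes and both Ntrk2 probes lie below 0, the bright Ntrk3 probe lies above 0, and the other 4 probes have intervals that include 0.

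Ngfr was read by 1 kept probe of 3, ILMN_2851288, near the limit of detection. It was detected on 5 of 6 male frontal cortex arrays, 3 of 6 female frontal cortex arrays, 5 of 6 male cerebellum arrays and 6 of 6 female cerebellum arrays. The lowest, median and highest log2 level was 4.52, 5.51 and 5.82 in male frontal cortex and 4.50, 4.91 and 5.26 in female frontal cortex. In cerebellum it was 4.66, 5.44 and 5.61 in males and 4.91, 5.11 and 5.30 in females. All 4 groups overlapped, with means of 5.39 ± 0.51, 5.30 ± 0.36, 5.11 ± 0.15 and 4.88 ± 0.36 (SD, n = 6) in male frontal cortex, male cerebellum, female cerebellum and female frontal cortex.

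The tissue difference of Ngfr was 0.07 (95% interval -0.21 to 0.35, limma adjusted p = 0.68), and 6 of 12 animals had the higher value in cerebellum. That interval leaves room for a change of either direction, so no tissue difference was detectable at this signal. Within tag set a the difference was 0.46 and within tag set b -0.13 (limma adjusted p = 0.057 and 0.44). In males it was 0.68 in tag set a and -0.48 in tag set b, and the latter passed (limma adjusted p = 0.048). With all arrays 58.1% of all probes passed the tissue contrast in males, so this call is not particular to Ngfr. The other Ngfr probes, ILMN_1231408 and ILMN_2635314, were detected on 0 of 24 arrays.

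Between the sexes, 0 of the 10 member probes passed in cerebellum by limma, where 0.156% of all probes did, and 1 had an unadjusted p under 0.05. In frontal cortex 0 passed, where 0.171% of all probes did, and 3 had an unadjusted p under 0.05. For the interaction of sex and tissue 0 passed, where 0.109% of all probes did, and 0 had an unadjusted p under 0.05. The share of all probes with an unadjusted p under 0.05 was not counted. Counts at that level, here and below, are thus a description and no result about the genes named. The probe with an unadjusted p under 0.05 in cerebellum was the dim Bdnf probe ILMN_1255582 (0.24 higher in females, 95% interval 0.01 to 0.47, limma adjusted p = 0.85).

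In frontal cortex these were the brightest Bdnf probe, a second Bdnf probe and the Ngfr probe. Bdnf by ILMN_3105417 was 0.39 higher in females (95% interval 0.15 to 0.63, limma adjusted p = 0.19), with 6 of 6 female arrays above the male mean. ILMN_2666980 was 0.30 higher (95% interval 0.02 to 0.58, limma adjusted p = 0.47). Ngfr was lower in females (log2 difference -0.51, 95% interval -0.91 to -0.11, limma adjusted p = 0.35). For Ntrk2 and Ntrk3 the difference of the brightest probe in frontal cortex was -0.04 (95% interval -0.18 to 0.09) and 0.06 (95% interval -0.15 to 0.27).

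The values of the brightest Bdnf probe and of Ngfr differed between the tag sets in male frontal cortex, but hardly in female frontal cortex. In cerebellum the Bdnf probe differed as well. Male cerebellum arrays stood at 8.44 to 8.73 in tag set a and at 8.27 to 8.43 in tag set b. Female cerebellum arrays stood at 8.26 to 8.54 and at 8.47 to 8.71. Females minus males, the Bdnf difference in cerebellum was -0.19 within tag set a and 0.26 within tag set b (limma adjusted p = 0.74 and 0.19). In male frontal cortex the brightest Bdnf probe stood at 9.18 and 9.21 on the arrays of tag set a and between 8.51 and 8.71 on those of tag set b, while female arrays ranged from 9.16 to 9.19 in tag set a and from 9.03 to 9.39 in tag set b. The difference of females minus males was -0.02 within tag set a and 0.59 within tag set b (limma adjusted p = 0.99 and 0.0024). For Ngfr it was 0.01 within tag set a and -0.77 within tag set b (limma adjusted p = 1 and 0.083). With male frontal cortex replicate 1 left out, the Bdnf difference was 0.47 and passed the threshold (limma adjusted p = 0.0496). Calls over all 21113 probes rose in the same fits. Between the sexes in frontal cortex 201 probes passed in tag set b alone, against 36 with all arrays. Among the fits with 1 array left out, the most probes passed without male frontal cortex replicate 1.

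The same 4 male arrays stood apart in several marker lists. The summed intensity of the 10 striatal markers measured was 10700 to 13680 on the male arrays of tag set b, against 5824 to 6796 on the male arrays of tag set a and 3441 to 7874 on the female arrays. For the 6 basal forebrain cholinergic markers measured the sums were 812.0 to 990.5, 422.1 to 428.7 and 189.4 to 559.0. By limma, 0 of the 10 striatal markers passed between the sexes in frontal cortex, while 10 had an unadjusted p under 0.05, with a median log2 difference of females minus males of -0.68. Of the cholinergic markers 1 of 6 passed (Lhx8, a transcription factor of these neurons, -0.85, limma adjusted p = 0.041) and 5 had an unadjusted p under 0.05, with a median of -0.83. The defining cholinergic marker Chat, choline acetyltransferase, was detected on 12 of 12 frontal cortex arrays and on 3 of 12 cerebellum arrays. The 4 arrays were also the highest of the frontal cortex arrays in the summed intensity of choroid plexus markers, at 453.4 to 498.2 against 168.8 to 299.6. Of these markers Clic6 was the brightest in frontal cortex, at a mean of 7.09. Ttr was detected on 6 of 12 frontal cortex arrays and Kcne2 on 0. Females minus males, Clic6 differed by -1.02 and Ttr by -0.44 (limma adjusted p = 0.43 and 0.96). The microglial sums of the 4 arrays were the highest as well, at 1570 to 1687 against 1303 to 1550. Their mean log2 levels of these markers overlapped the others (7.11 to 7.23 against 7.01 to 7.20). In the mean log2 level of the 12 neocortical markers the 4 arrays were the lowest, at 9.23 to 9.36 against 9.38 to 9.59, although the sums overlapped (21370 to 24220 against 23330 to 30920). In the mean log2 level of the 11 cerebellar markers they were the highest, at 6.12 to 6.24 against 5.95 to 6.04, although their sums were among the lower ones (5022 to 5476 against 5354 to 6731). On the other 6 lists of other cell types or regions their ranges overlapped those of the other arrays. Of the hippocampal dentate gyrus markers, 1 of 4 passed between the sexes in frontal cortex (Calb2, -0.78, limma adjusted p = 0.041), and 2 had an unadjusted p under 0.05. Calb2 was brighter in cerebellum than in frontal cortex (means of 13.26 and 9.41), so it does not mark dentate gyrus alone here. The others of this list differed by -0.35 (C1ql2), -0.09 (Prox1) and 0.09 (Trpc6). Whether the markers of any of these lists have a part in the Bdnf and Ngfr values was not tested.

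**Figure D3:**
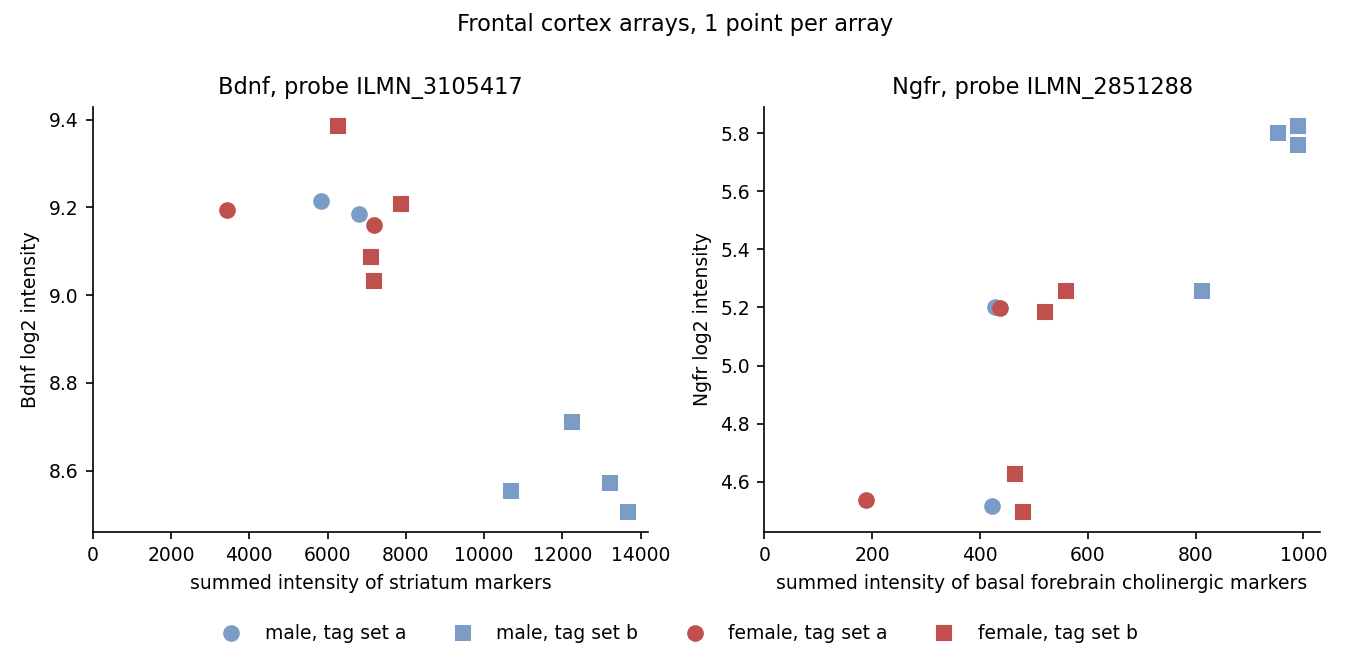
Each point is a frontal cortex array, with males in blue and females in red, round for tag set a and square for tag set b. The left panel sets the Bdnf log2 level of ILMN_3105417 against the summed intensity of striatal markers, and the right panel sets the Ngfr log2 level against that of cholinergic markers. The 4 male arrays of tag set b have Bdnf at 8.51 to 8.71 with striatal sums of 10700 to 13680, and Ngfr at 5.26 to 5.82 with cholinergic sums of 812.0 to 990.5.

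Genes with the pattern most like each member's were named by Pearson's r across the 24 arrays, as a description. For the level of the brightest Bdnf probe they were Pcnx2 (r = 0.878) and Nrn1 (0.873), for Ntrk2 6330403K07Rik (0.977) and Cyp7b1 (0.974), for Ntrk3 Tmem25 (0.961) and Mus81 (0.953), and for Ngfr Tyms-ps (0.746) and Snx27 (0.690). For Bdnf, Ntrk2 and Ntrk3 the arrays share a tissue difference, which enters these values. Over deviations from the group means they were Gca (0.766) and Nrn1 (0.758) for Bdnf, Lypd3 (0.796) and Adgrl4 (0.723) for Ntrk2, Ppp1r12c (0.845) and Crebl2 (0.795) for Ntrk3, and Usp29 (0.797) and Mrpl9 (0.723) for Ngfr. Nrn1 was named for Bdnf by both measures, but the deviations of Bdnf still hold the tag set difference in male frontal cortex. Its mean log2 level was 12.35 in frontal cortex and 11.50 in cerebellum.

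The wider neurotrophin system was followed through 8 gene lists. Of the listed genes 70 were measured by a kept probe, 20 had probes that were not kept and 16 were not analysed here. In cerebellum 31 of the 70 were lower and 21 were higher, with 18 not past the threshold, or 44.3% and 30.0%, beside 32.9% and 37.6% of the 11439 kept genes. Their median log2 difference was -0.09, beside 0.03 for all kept genes. Some of the lower genes, such as Rtn4r and Map2k1, needed detection in frontal cortex to be kept, so their direction adds no support. The same filter applied to all kept genes. Between the sexes in frontal cortex 0 of the 70 passed by limma, and 12 had an unadjusted p under 0.05. Among the other ligands, Ntf5, which encodes neurotrophin 4, had a probe that was not kept.

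Of 8 further receptors and coreceptors measured, 6 were lower in cerebellum and 1 was higher. Lingo1, a partner of p75 in the receptor complex for myelin inhibitors, was 7.55-fold lower, at 8.67 ± 0.25 in frontal cortex and 5.75 ± 0.22 in cerebellum (SD, n = 12, log2 difference -2.92 ± 0.09 SE, limma adjusted p = 2.8e-21). Sorcs1, of the sortilin family of sorting receptors, fell by 1.81 on the log2 scale, and Rtn4r, the Nogo receptor, fell by 0.41 with detection on 4 of 12 cerebellum arrays. Sorl1, a sorting receptor that carries TrkB to synapses, was 1.62-fold higher (0.70 ± 0.07 SE).

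The genes that mature and release neurotrophins were divided, with 4 of 8 measured higher and 3 lower in cerebellum. Pcsk6, a convertase that cuts proneurotrophins, was 7.50-fold higher, at 10.41 ± 0.11 in cerebellum and 7.50 ± 0.16 in frontal cortex (SD, n = 12, log2 difference 2.91 ± 0.06 SE, limma adjusted p = 3.3e-24). Cadps2, which promotes release of Bdnf from dense-core vesicles, was 2.69-fold higher (1.43 ± 0.06 SE). Hap1, huntingtin-associated protein 1, which carries pro-Bdnf along axons, and Cpe, carboxypeptidase E, which sorts it to the regulated pathway, were lower (-0.86 and -0.63).

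Of 13 adaptors that dock at Trk receptors, 7 were higher and 1 was lower in cerebellum. Crkl and Gab1 were higher by 0.81 and 0.62 on the log2 scale, Crk by 0.17, and Shc3, the neuronal Shc adaptor, fell by 1.11. Of 5 genes for signal proteins of p75, 2 were higher and 1 was lower. These were Traf6, a ubiquitin ligase recruited by p75 (0.92), Irak1 (0.19) and Bex3, which binds the death domain of p75 (-0.48).

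Of 15 kinases and factors downstream of Trk, 4 were higher and 6 were lower in cerebellum. Camk4, a kinase that phosphorylates CREB, was 2.87-fold higher, and Rps6ka5, a kinase of CREB that Trk signals switch on, was 2.72-fold higher (1.52 ± 0.09 and 1.45 ± 0.07 SE). The lowest were Pik3r2, a regulatory subunit of PI 3-kinase (-0.45), and Map2k1, the ERK kinase MEK1 (-0.38), whose probe was detected on 5 of 12 frontal cortex and 1 of 12 cerebellum arrays.

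Genes known to be induced by Bdnf in cultured neurons were lower in cerebellum throughout, in 11 of 11 measured, with a median log2 difference of -2.34. Nptx2, a secreted pentraxin that clusters glutamate receptors, was 22.1-fold lower, at 9.70 ± 0.25 in frontal cortex and 5.24 ± 0.37 in cerebellum (SD, n = 12, log2 difference -4.47 ± 0.12 SE, limma adjusted p = 4.3e-22). Vgf, a precursor of secreted peptides, was 10.3-fold lower (-3.37 ± 0.11 SE), and the smallest falls were those of Dusp6, a phosphatase of ERK, and Fos (-1.47 and -0.89). Many of them, such as Arc and the Egr genes, are known to answer also to neuronal activity through other signals.

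Among 10 genes of other neurotrophic factor families, 3 were higher and 3 were lower. Ret, the kinase receptor of the GDNF family, was 6.40-fold higher in cerebellum, and Mdk, the growth factor midkine, was 2.63-fold higher (2.68 ± 0.08 and 1.39 ± 0.06 SE). Gfra4, a coreceptor of that family, and Ptn, the factor pleiotrophin, were lower (-1.73 and -0.93).

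**Figure D4:**
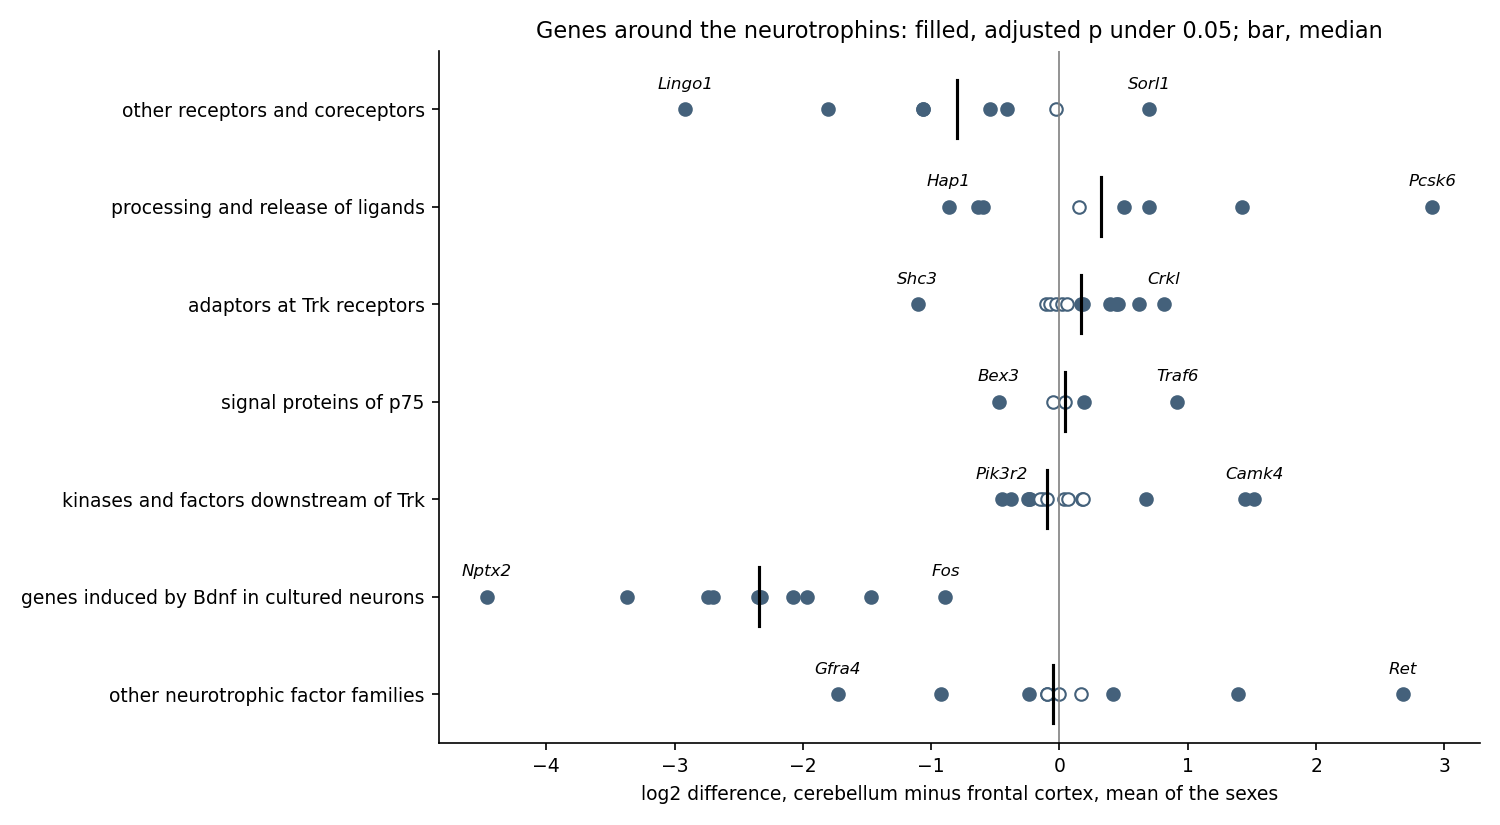
Each point is a gene measured by its brightest kept probe, placed by its log2 difference of cerebellum minus frontal cortex (mean of the sexes), in 7 lists. Points are filled where the adjusted p was under 0.05, a black bar marks the median of each list, and the lowest and highest genes are named. The genes induced by Bdnf in cultured neurons all lie below 0, from Nptx2 at -4.47 to Fos at -0.89, while the other lists hold genes on both sides.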

How the data were processed

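Total RNA of frontal cortex and cerebellum was hybridised to 24 arrays, and the groups by sex and tissue were read from the labels. Both tissues of an animal share an animal label, which gives the pairing. Its check, on deviations from the group means, found correlations of -0.30 to 0.24 within the 12 animals, with 5 over 0.1. The members, the gene lists and the alternatives were chosen with earlier results of these data known.

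The deposited scanner table gives each probe an intensity averaged over beads, linear and not normalized, with its standard error and a detection p-value, per the file headers. A further deposited value counts the beads. The mean number of beads per probe was 44.1 to 45.6 per array, and the standard error over beads was 3.49% to 5.60% of the signal (medians of the kept member probes). The deposited table of the authors holds intensity values whose sorted columns were at most 1.93% apart, and these were used only as an alternative. Partek is listed in the submitters' processing notes, with role and version not given. The scanner software is not given in the sources used here. Sample columns left unused numbered 0.

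Background correction and quantile normalization used neqc (offset 16) in limma 3.58.1 under R 4.3.3, and log2 values were computed here from the deposited intensity. Files were read with version 1.17.8 of data.table, and statmod 1.5.0 served the animal correlation. A single gene symbol was given for 34885 probes, several for 18 and none for 10378 in the annotation used here. Entrez IDs matched 34807 of these probes to current symbols in a RefSeq table of GRCm38.p6. A mean per group was fitted with lmFit and eBayes (20 residual and 5.82 prior degrees of freedom). Contrasts were two-sided, with Benjamini-Hochberg adjustment over 21113 probes at 0.05. The scripts were tested on simulated data.

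All member probes were described, and the brightest kept probe stood for a gene. Of each list up to 4 genes were named, the 2 highest and the 2 lowest past the threshold, and of each member the 2 genes with the highest r. Genes or probes given beyond these rules were chosen after their values were seen. The RefSeq start windows of GRCm38.p6 matched 4 of the 5 members, and Ntrk3 had none. Alternatives changed the background correction, normalization, filter, moderation, array weights, tag set, animal block, column run and the arrays included. Leaving out the 2 arrays highest in choroid plexus markers was added after seeing the data.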

Additional observations from a re-analysis of the deposited data

Results flagged for a closer look

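Within groups of 6 arrays, 40 sets of values (10 kept probes in 4 groups) were searched for an array far from the rest by Dixon's ratio, which flags about 1 in 20 by chance, and 2 were found. The Bdnf probe ILMN_2446230 was at 5.28 in female frontal cortex replicate 6, with the nearest array at 5.60. The brightest Ntrk2 probe, ILMN_3138904, was at 10.07 in female cerebellum replicate 5, with the nearest at 10.20. The test of the difference between the sexes' tissue effects passed for 0 member probes by limma, with 0 at an unadjusted p under 0.05.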

How the results depend on the processing

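Over 40 alternatives per contrast, 2372 of 2376 values of member probes kept their direction where called and their side of the threshold. In 72 cases a value that was not called changed sign. For the mean of the sexes, none of the 396 values crossed the threshold, and the number of member probes past it was 5 to 6, with 5 where fewer probes were tested (detection on all 24 arrays). The 4 exceptions were Ntrk3 in females in tag set a alone (0.46, limma adjusted p = 0.11), Ngfr by tissue in males in tag set b alone (-0.48, 0.048), and Bdnf by sex in frontal cortex in tag set b alone (0.59, 0.0024) and without male frontal cortex replicate 1 (0.47, 0.0496). The number of member probes past the threshold by sex in frontal cortex was thus 0, but 1 in tag set b alone, and 0 to 1 with 1 array left out. The cause was not tested. With the animal as a replicate block the tissue differences were -0.51 for Bdnf, -0.58 for Ntrk2, 0.76 for Ntrk3 and 0.07 for Ngfr, and the paired fit changed no call. Without the female cerebellum arrays highest in choroid plexus markers they were -0.48, -0.58, 0.80 and 0.07. The median of all probes moved from -0.03 to 0.05 over the settings. Over all probes, the number past the threshold was 33 by sex in cerebellum and 1 to 150 under other settings, and 26 to 38 with 1 array left out. For the interaction it was 23, 1 to 59 and 18 to 24. By sex in frontal cortex it was 36, and under other settings from 4 in tag set a alone to 201 in tag set b alone. With 1 array left out it was lowest at 12, without male frontal cortex replicate 5. It was 61 without male replicate 2, 100 without female replicate 5 and more without male replicate 1 of that tissue. In females by tissue it was 12073, and 7356 in tag set a alone. Among the listed pathway genes 44 to 55 passed by tissue, against 52. Ngfr, Bdnf by ILMN_1255582 and Ntrk3 by ILMN_2599036 were near background, and Bdnf by ILMN_1214228 was so in cerebellum, so small differences were not detectable there.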
